A study of Homo sapiens with 24 samples.

Results

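PTPMT1, SLC36A1, CEBPD, TMEM121, TMEM238, CHRM1, UNC5B and SSPO stood among the genes with the largest increases after transfection of a microRNA (miRNA) mimic into ESR1-mutant T-47D cells. They are 8 of the 26364 genes in the deposited tables. An earlier look at these data picked them by fold change against the mimic negative control in 4 comparisons: miR-301b-3p and miR-331-3p mimics in Y537S clones, and miR-301b-3p and miR-181c-5p mimics in D538G clones. Their changes in those 4 comparisons are therefore given as a description, with no test. Tests are given for the WT clones, for the let-7f-5p inhibitor and for direct comparisons between mimics. The question is which rises were shared by all mimics and which belonged to 1 miRNA.

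T-47D is an established luminal breast cancer line, and the study used clones of it that carry wild-type ESR1 (WT) or the Y537S or D538G mutation of this gene, which encodes estrogen receptor alpha. RNA-seq was performed on 24 poly-A libraries, 24 h after transfection with 10 nM of a synthetic oligonucleotide, from cells moved to hormone-deprived medium before transfection. WT clones received the mimic negative control or 1 of 3 mimics (miR-331-3p, miR-301b-3p and miR-181c-5p), and D538G clones the same control or a mimic of miR-301b-3p or miR-181c-5p. Y537S clones received the mimic control, the miR-301b-3p or miR-331-3p mimic, an inhibitor negative control or the let-7f-5p inhibitor. Each of the 12 conditions has 2 libraries, 1 from each of 2 clones of that genotype (6 clones in all), so each value stands on 1 library of each clone and the spread is that between clones. The table headings call the WT clones D1 and D4, the D538G clones A5 and C2, and the Y537S clones 1 and 2. One field of the labels spells the Y537S genotype Y573S, and the sample titles give Y537S.

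A mature miRNA is a short RNA that guides the Argonaute protein to messenger RNAs, mainly by pairing of its seed, bases 2 to 8, with a complementary stretch that often lies in the 3′ untranslated region (3′UTR). Paired messengers are repressed or degraded, so a direct target is lowered by a mimic and raised by an inhibitor. A messenger that is higher after a mimic is not the usual direct target. The mature sequences are shown because they define what each mimic copies, with the seed in capitals; they are those of RefSeq (GRCh38.p14), 5′ to 3′.
hsa-miR-301b-3p: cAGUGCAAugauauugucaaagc
hsa-miR-331-3p: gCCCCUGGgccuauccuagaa
hsa-miR-181c-5p: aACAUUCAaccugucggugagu
hsa-let-7f-5p: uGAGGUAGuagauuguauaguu
The 4 seeds differ from each other. RefSeq places miR-301b-3p at chr22:21653025-21653047 (plus strand), miR-331-3p at chr12:95308480-95308500 (plus strand) and miR-181c-5p at chr19:13874725-13874746 (plus strand). The same let-7f-5p sequence comes from 2 genes, at chr9:94176353-94176374 (plus strand) and chrX:53557246-53557267 (minus strand).

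Total counts ran from 31379962 to 50526442 per library, with a median of 39878595, and the lowest count of any of the 8 genes in any library was 71 reads. Levels are given as CPM, the read count scaled to library size, after TMM scaling over all 24 libraries. All 8 luminal markers examined, among them ESR1 (71.4 to 291 CPM), GATA3 (1363 to 1720 CPM) and EPCAM (144 to 198 CPM), were present in every library. Among 8 markers of other cells, the leukocyte gene PTPRC had no read in 19 of 24 libraries and VIM did not exceed 1.95 CPM, whereas the collagen gene COL1A1 was at 47.3 to 81.0 CPM in every library. In such bulk RNA, a change in every cell and a change in the share of cells that make a transcript cannot be told apart.

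In the WT clones, whose libraries played no part in the choice, all 8 genes had a log2 fold change above 0 after every mimic, and how many passed the test differed by mimic. After the miR-301b-3p mimic 7 of 8 rose by edgeR's quasi-likelihood test (adjusted p below 0.05 over all genes), where 4.63% of all genes tested were called higher. After the miR-331-3p mimic 7 of 8 rose, against 14.2% of all genes. After the miR-181c-5p mimic 3 of 8 rose (PTPMT1, CEBPD and SLC36A1), against 8.1% of all genes. The median log2 fold change of the 8 genes was 1.02, 0.82 and 0.82 after the respective mimics, and that of all genes lay within 0.01 of 0. These 3 comparisons share the same 2 control libraries. None of the 8 was called lower, and the smallest log2 fold change was 0.22 (CHRM1 after miR-181c-5p). Fitting the clone as a block raised the miR-181c-5p count to 6 by adding SSPO, TMEM238 and TMEM121, and the share of all genes called higher to 14.5%.

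**Figure D1:**
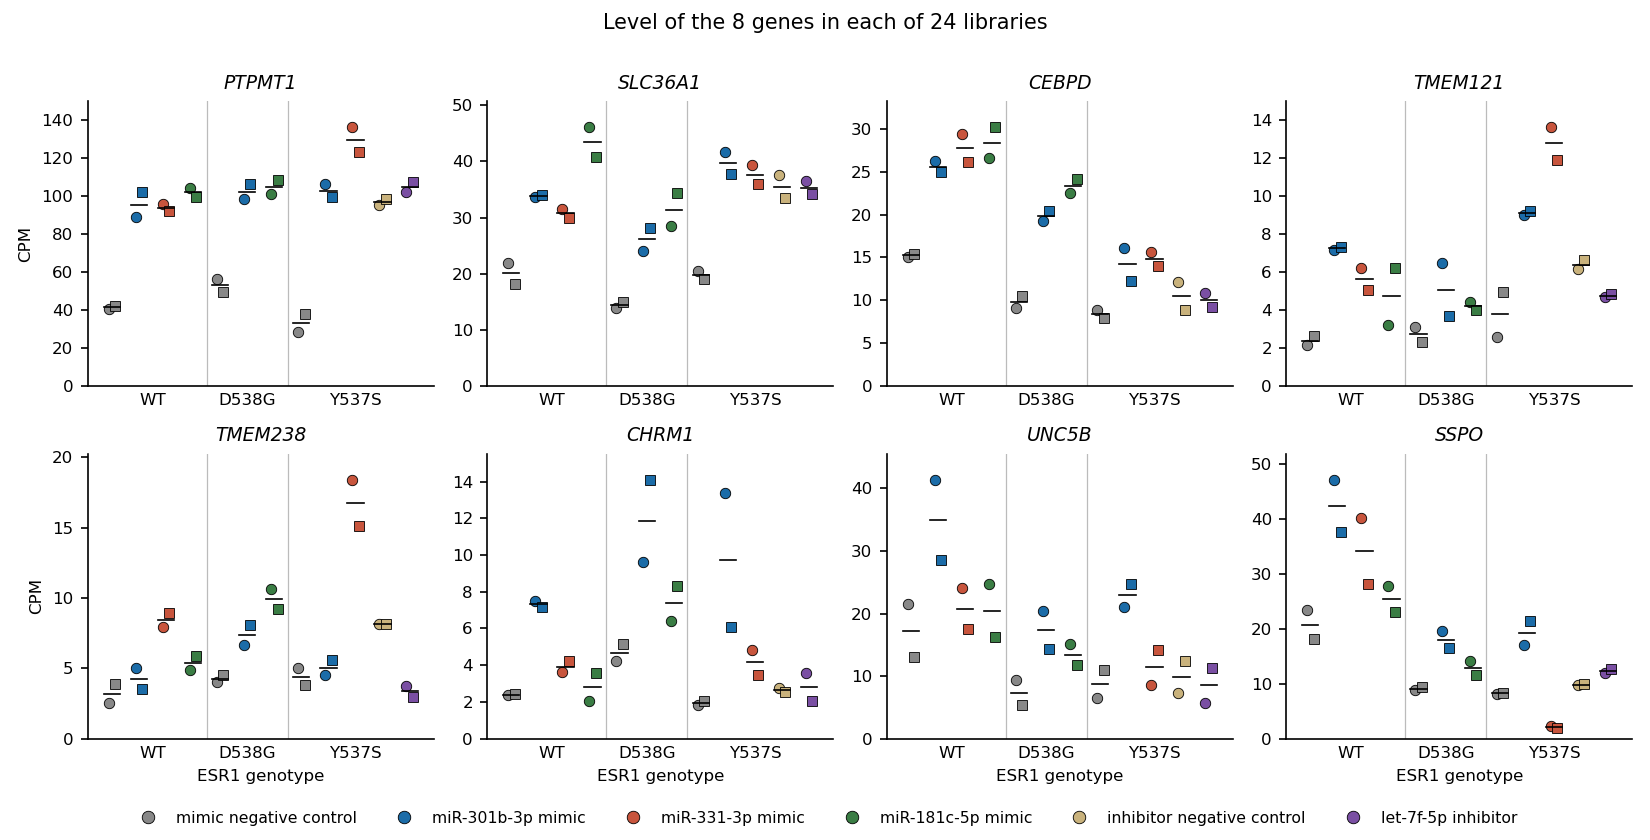
Level of each gene in CPM (vertical axis, from 0) in each of the 24 libraries, grouped by ESR1 genotype; circles and squares are the 2 clones of a genotype, colours the treatments, and short lines the mean of the 2. The grey mimic control points of PTPMT1 (28.4 to 56.4 CPM) and SLC36A1 (13.9 to 22.0 CPM) lie below every other point of these genes, including the inhibitor control and let-7f-5p inhibitor of Y537S.

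PTPMT1 encodes a mitochondrial phosphatase that makes phosphatidylglycerol, a precursor of the membrane lipid cardiolipin. Its level was 40.7 and 42.3 CPM in the WT control libraries (clones D1 and D4). It was 88.7 and 102 CPM after miR-301b-3p, 95.7 and 91.9 CPM after miR-331-3p, and 104 and 99.5 CPM after miR-181c-5p. All 6 mimic libraries stood above both controls, with little spread among them. PTPMT1 rose by 1.19 ± 0.0952 (log2 fold change ± SE, adjusted p = 0.000974) after miR-301b-3p, by 1.2 ± 0.0679 (adjusted p = 1.38e-05) after miR-331-3p and by 1.28 ± 0.0785 (adjusted p = 3.7e-05) after miR-181c-5p. None of the 11 alternative settings removed a call of PTPMT1 in these comparisons. No difference between mimics passed for PTPMT1 (adjusted p from 0.539 to 0.963). The differences were -0.01 (95% interval -0.19 to 0.17) for miR-331-3p minus miR-301b-3p, 0.09 (-0.09 to 0.27) for miR-181c-5p minus miR-301b-3p and 0.10 (-0.08 to 0.28) for miR-181c-5p minus miR-331-3p.

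In the mutant clones the picture of PTPMT1 was alike. Mimic and mimic control libraries of these clones served to choose the genes, so this likeness is a description only. The D538G controls were at 56.4 and 49.3 CPM (A5 and C2), the miR-301b-3p libraries at 98.4 and 106 CPM and the miR-181c-5p libraries at 101 and 108 CPM. The Y537S controls were the lowest of all, at 28.4 and 38.0 CPM (clones 1 and 2), against 106 and 99.4 CPM after miR-301b-3p and 136 and 123 CPM after miR-331-3p. The 2 Y537S conditions without any mimic were not low: the inhibitor control libraries held 95.1 and 98.2 CPM and the let-7f-5p inhibitor libraries 102 and 107 CPM. The let-7f-5p inhibitor against its own control gave a log2 fold change of 0.11 (95% interval -0.08 to 0.30, adjusted p = 1.0). The inhibitor control thus stood 1.74 and 1.37 log2 units above the mimic control in clones 1 and 2, while the miR-301b-3p mimic differed from the inhibitor control by 0.16 and 0.02.

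SLC36A1 encodes a proton-coupled transporter that carries small amino acids out of lysosomes and into cells. Its WT controls held 22.0 and 18.1 CPM, and the mimic libraries 33.7 and 34.0 CPM (miR-301b-3p), 31.6 and 30.01 CPM (miR-331-3p), and 46.1 and 40.8 CPM (miR-181c-5p). Every mimic library was above both controls, and those of miR-181c-5p were the highest of the 8 WT libraries. SLC36A1 rose by 0.75 ± 0.12 (adjusted p = 0.0113), 0.64 ± 0.108 (adjusted p = 0.00206) and 1.11 ± 0.118 (adjusted p = 0.000371) after the 3 mimics in that order, and kept each call under all 11 alternative settings. The level after miR-181c-5p exceeded that after miR-331-3p by 0.48 (95% interval 0.25 to 0.72, adjusted p = 0.0172), and that after miR-301b-3p by 0.36 (0.13 to 0.60, adjusted p = 0.0564; 0.0108 with the clone block). In D538G the values were 13.9 and 15 CPM in controls, 24.0 and 28.2 CPM after miR-301b-3p, and 28.5 and 34.3 CPM after miR-181c-5p. In Y537S the mimic controls held 20.4 and 19.1 CPM, and the other 8 libraries lay between 33.5 and 41.6 CPM. Both inhibitor conditions belonged to that upper group, and the let-7f-5p inhibitor differed from its control by -0.01 (-0.26 to 0.24, adjusted p = 1.0).

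CEBPD encodes a transcription factor of the C/EBP family that is induced by inflammatory and stress signals and is a known target of STAT3. Its WT levels were 15.1 and 15.4 CPM in controls, 26.2 and 25.0 CPM after miR-301b-3p, 29.4 and 26.1 CPM after miR-331-3p, and 26.6 and 30.2 CPM after miR-181c-5p. No mimic library overlapped the controls. CEBPD rose by 0.74 ± 0.109 (adjusted p = 0.00773), 0.89 ± 0.104 (adjusted p = 0.000341) and 0.89 ± 0.113 (adjusted p = 0.00089), and its 3 differences between mimics spanned 0.02 to 0.15, with intervals between -0.21 and 0.38. The D538G controls held 9.11 and 10.5 CPM, against 19.2 and 20.4 CPM after miR-301b-3p and 22.5 and 24.2 CPM after miR-181c-5p. The Y537S levels were lower overall. They were 8.88 and 7.93 CPM in mimic controls, 16.1 and 12.3 CPM after miR-301b-3p, 15.6 and 14 CPM after miR-331-3p, 12.1 and 8.83 CPM in inhibitor controls, and 10.8 and 9.22 CPM after the let-7f-5p inhibitor. Unlike PTPMT1 and SLC36A1, CEBPD in the Y537S inhibitor libraries lay between the mimic controls and the mimic libraries or overlapped them. The let-7f-5p inhibitor gave -0.07 (-0.60 to 0.46, adjusted p = 1.0).

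TMEM121 encodes a transmembrane protein of which little is known. Its WT levels were 2.14 and 2.62 CPM in controls, 7.15 and 7.31 CPM after miR-301b-3p, 6.21 and 5.07 CPM after miR-331-3p, and 3.22 and 6.21 CPM after miR-181c-5p. The 2 clones differed most after miR-181c-5p. TMEM121 rose by 1.60 ± 0.211 (adjusted p = 0.00547) after miR-301b-3p and by 1.27 ± 0.229 (adjusted p = 0.00286) after miR-331-3p. After miR-181c-5p the change was 0.98 ± 0.331 (adjusted p = 0.0709; 0.00747 with the clone block), and it rested on single libraries. It was 1.38 (adjusted p = 0.00604) without the D1 library of that mimic and 0.41 (adjusted p = 0.529) without the D4 library. The differences between mimics were -0.34 (-0.92 to 0.24), -0.61 (-1.21 to -0.02) and -0.27 (-0.87 to 0.32), and none passed the threshold, with adjusted p from 0.21 to 0.634. The mutant clones held 3.12 and 2.32 CPM (D538G) and 2.60 and 4.93 CPM (Y537S) in mimic controls. The highest TMEM121 levels of the series were 13.6 and 11.9 CPM, after miR-331-3p in Y537S, and the miR-301b-3p libraries of Y537S held 8.97 and 9.21 CPM. The D538G libraries held 6.46 and 3.66 CPM after miR-301b-3p and 4.41 and 4.01 CPM after miR-181c-5p. The Y537S inhibitor controls were at 6.15 and 6.62 CPM and the let-7f-5p inhibitor libraries at 4.68 and 4.81 CPM, a difference of -0.43 (-0.91 to 0.05, adjusted p = 0.994).

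TMEM238 encodes a small transmembrane protein, and its level was highest after the miR-331-3p mimic in both genotypes that received it. Its WT levels were 2.52 and 3.85 CPM in controls, 5.01 and 3.49 CPM after miR-301b-3p, 7.93 and 8.94 CPM after miR-331-3p, and 4.84 and 5.85 CPM after miR-181c-5p. The miR-331-3p libraries were above all others, and the miR-301b-3p libraries overlapped the controls. TMEM238 rose by 1.43 ± 0.223 (adjusted p = 0.00138) after miR-331-3p. The other changes were 0.42 ± 0.292 (adjusted p = 0.405) after miR-301b-3p, with the clones in opposite directions (0.98 in D1 and -0.14 in D4), and 0.74 ± 0.265 (adjusted p = 0.0861; 0.0121 with the clone block) after miR-181c-5p. In direct comparison, the level after miR-331-3p exceeded that after miR-301b-3p by 0.99 (95% interval 0.47 to 1.52, adjusted p = 0.0316). That after miR-181c-5p was 0.67 lower than after miR-331-3p on the log2 scale (difference -0.67, -1.19 to -0.15, adjusted p = 0.118; 0.0418 with the clone block).

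The same order of mimics was seen for TMEM238 in Y537S, where the mimic controls held 4.99 and 3.80 CPM, the miR-301b-3p libraries 4.49 and 5.56 CPM and the miR-331-3p libraries 18.4 and 15.1 CPM. The D538G clones did not receive miR-331-3p. Their levels were 4.02 and 4.50 CPM in controls, 6.64 and 8.08 CPM after miR-301b-3p, and 10.6 and 9.20 CPM after miR-181c-5p. In the Y537S inhibitor arm TMEM238 was at 8.16 and 8.11 CPM in controls and at 3.71 and 2.99 CPM after the let-7f-5p inhibitor. The groups did not overlap, and both clones were lower, by log2 changes of -1.13 and -1.42. The fitted change of -1.28 (-1.81 to -0.75) had an unadjusted p of 0.00146 in edgeR's test, which did not pass the adjustment over all genes (adjusted p = 0.751). It passed with the clone block (adjusted p = 4.41e-05) and in DESeq2 (adjusted p = 0.00238). In this comparison edgeR called 0 of 15140 genes (0.0%), 786 genes had an unadjusted p below 0.05, DESeq2 called 79 and the fit with the clone block called 1694.

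CHRM1 encodes the M1 muscarinic acetylcholine receptor, a receptor coupled to G proteins that is best known from neurons, and its level was highest after miR-301b-3p. Its WT levels were 2.38 and 2.41 CPM in controls, 7.51 and 7.15 CPM after miR-301b-3p, 3.61 and 4.23 CPM after miR-331-3p, and 2.02 and 3.59 CPM after miR-181c-5p. The miR-301b-3p libraries were the highest, the miR-331-3p libraries intermediate, and those of miR-181c-5p straddled the controls. CHRM1 rose by 1.60 ± 0.2 (adjusted p = 0.00472) after miR-301b-3p. The rise of 0.73 ± 0.236 after miR-331-3p was close to the threshold (adjusted p = 0.0443). It missed the threshold when any 1 of the 4 libraries was left out (0.62 to 0.84), and in DESeq2 (adjusted p = 0.0849). After miR-181c-5p the change was 0.22 ± 0.328 (adjusted p = 0.702). The level after miR-181c-5p was below that after miR-301b-3p by a log2 difference of -1.38 (-1.94 to -0.82, adjusted p = 0.00489), which held under every alternative. The level after miR-331-3p differed from that after miR-301b-3p by -0.89 (-1.43 to -0.35, adjusted p = 0.058; 0.0103 with the clone block).

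In the mutant clones CHRM1 was also highest after miR-301b-3p. The D538G libraries held 4.24 and 5.13 CPM in controls, 9.62 and 14.1 CPM after miR-301b-3p, and 6.41 and 8.32 CPM after miR-181c-5p. The Y537S libraries held 1.85 and 2.05 CPM in mimic controls, 13.4 and 6.10 CPM after miR-301b-3p, and 4.83 and 3.46 CPM after miR-331-3p. The fitted log2 fold change of 2.29 after miR-301b-3p in Y537S was the largest of the 8 genes in any comparison, with clone 1 at 2.82 and clone 2 at 1.55. The inhibitor controls (2.78 and 2.52 CPM) and the let-7f-5p inhibitor libraries (3.55 and 2.07 CPM) overlapped, with a difference of 0.08 (-0.80 to 0.96, adjusted p = 1.0).

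UNC5B encodes a receptor for the guidance cue netrin-1 and is known as a dependence receptor, which can signal cell death when its ligand is absent. Its clones differed in level, so changes are best read within a clone. In WT clone D1 it was 21.5 CPM in the control and 41.4, 24.1 and 24.7 CPM after miR-301b-3p, miR-331-3p and miR-181c-5p. In WT clone D4 the same libraries held 13, 28.5, 17.5 and 16.2 CPM. Only miR-301b-3p took both clones above both controls, and UNC5B rose after it by 1.01 ± 0.243 (adjusted p = 0.0412; 0.109 in DESeq2). The changes after miR-331-3p, 0.30 ± 0.209 (adjusted p = 0.345; 0.0137 with the clone block), and miR-181c-5p, 0.24 ± 0.234 (adjusted p = 0.543), did not pass. That after miR-331-3p was 0.70 (adjusted p = 0.0203) without the D1 control library and -0.02 (adjusted p = 0.955) without the D4 control library. The differences of these mimics from miR-301b-3p were -0.73 (-1.29 to -0.18, adjusted p = 0.125) and -0.77 (-1.33 to -0.21, adjusted p = 0.0919). With the clone block, which removes the difference in level between D1 and D4, both passed (adjusted p = 8.99e-05 and 2.76e-05).

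The D538G libraries of UNC5B held 9.30 and 5.30 CPM in controls, 20.4 and 14.4 CPM after miR-301b-3p, and 15.1 and 11.7 CPM after miR-181c-5p. The Y537S libraries held 6.46 and 11 CPM in mimic controls, 21.1 and 24.7 CPM after miR-301b-3p, and 8.56 and 14.2 CPM after miR-331-3p. In all 3 genotypes the miR-301b-3p libraries were the highest of their clone. The Y537S inhibitor controls (7.23 and 12.4 CPM) and let-7f-5p inhibitor libraries (5.68 and 11.3 CPM) overlapped, with a difference of -0.22 (-1.28 to 0.84, adjusted p = 1.0).

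SSPO is named for SCO-spondin, a large secreted glycoprotein of the brain's subcommissural organ; the GENCODE annotation lists the human locus as a transcribed pseudogene under the name SSPOP. Its WT levels were 23.4 and 18.1 CPM in controls, 47.1 and 37.6 CPM after miR-301b-3p, 40.1 and 28.1 CPM after miR-331-3p, and 27.7 and 23.1 CPM after miR-181c-5p. Within each WT clone the order was miR-301b-3p, miR-331-3p, miR-181c-5p, control. SSPO rose by 1.02 ± 0.154 (adjusted p = 0.00894) and 0.74 ± 0.163 (adjusted p = 0.00785) after the first 2 mimics, the latter falling to 0.46 (adjusted p = 0.0958) without the D1 library of miR-331-3p. After miR-181c-5p the change was 0.28 ± 0.141 (adjusted p = 0.209; 0.0356 with the clone block). The level after miR-181c-5p was lower than that after miR-301b-3p by a log2 difference of -0.74 (-1.12 to -0.35, adjusted p = 0.0225). The differences of -0.30 between miR-331-3p and miR-301b-3p and -0.44 between miR-181c-5p and miR-331-3p did not pass (adjusted p = 0.387 and 0.175), and both passed with the clone block (adjusted p = 0.0334 and 0.00431).

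In Y537S the miR-331-3p mimic went with the opposite change of SSPO. The mimic controls held 8.11 and 8.31 CPM, the miR-301b-3p libraries 17.0 and 21.4 CPM, and the miR-331-3p libraries 2.29 and 1.92 CPM, the lowest of the series. The fitted log2 fold change after miR-331-3p was -1.93 in Y537S, with -1.80 and -2.08 in the 2 clones, against 0.78 and 0.63 in the 2 WT clones. The Y537S inhibitor controls (9.76 and 9.91 CPM) and let-7f-5p inhibitor libraries (11.9 and 12.7 CPM) stood close to the mimic controls, with 0.32 (-0.04 to 0.68, adjusted p = 0.994) between the 2 inhibitor groups. In D538G the values were 8.78 and 9.33 CPM in controls, 19.5 and 16.4 CPM after miR-301b-3p, and 14.1 and 11.6 CPM after miR-181c-5p.

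**Figure D2:**
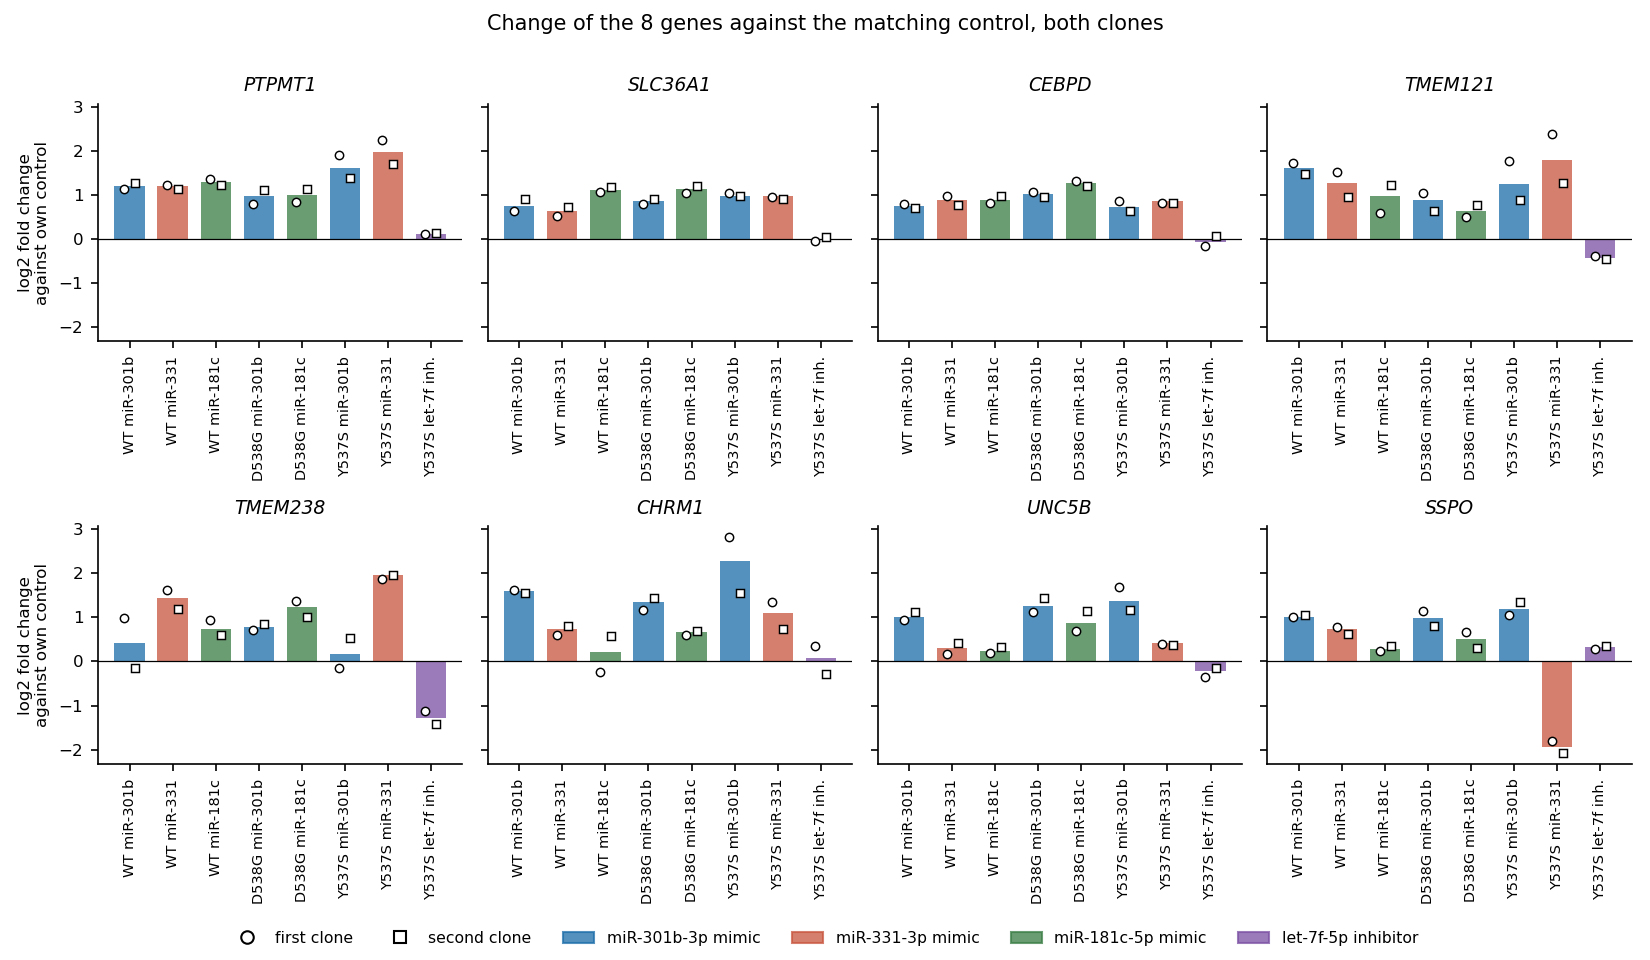
Log2 fold change (vertical axis) of each gene against the matching negative control in 7 mimic comparisons and the let-7f-5p inhibitor comparison; bars are fitted changes from both clones, circles and squares each clone's own change. PTPMT1, SLC36A1 and CEBPD are above 0 in both clones of all 7 mimic comparisons, SSPO is below 0 after miR-331-3p in Y537S, and TMEM238 is below 0 after the let-7f-5p inhibitor.

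The per-clone changes sort the genes by how widely the rise was shared. PTPMT1, SLC36A1, CEBPD, TMEM121 and UNC5B were higher than their control in both clones of all 7 mimic comparisons. PTPMT1 changes ranged from 0.96 to 1.98, SLC36A1 changes from 0.64 to 1.13 and CEBPD changes from 0.73 to 1.26. TMEM238 was an exception after miR-301b-3p, where 1 WT and 1 Y537S clone were lower (-0.14 and -0.15). CHRM1 was lower in 1 WT clone after miR-181c-5p (-0.23), and SSPO in both Y537S clones after miR-331-3p. In the 4 mutant comparisons that chose the genes, 7 (Y537S miR-301b-3p), 6 (Y537S miR-331-3p), 8 (D538G miR-301b-3p) and 8 (D538G miR-181c-5p) had both mimic libraries above both controls. Among all genes tested 27.9%, 32.3%, 28.5% and 27% did, and nothing is read from these counts. In WT the counts were 7, 7 and 5 after miR-301b-3p, miR-331-3p and miR-181c-5p, against 29.5%, 29.4% and 31.4% of all genes.

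Genes called higher in those mutant comparisons were ranked by log2 fold change if both clones were higher and the mean level reached 3 log2 CPM. Calls in the higher direction covered 1.23% and 17.2% of genes in Y537S (miR-301b-3p and miR-331-3p) and 5.29% and 5.58% in D538G (miR-301b-3p and miR-181c-5p). PTPMT1 was first in Y537S after both miR-301b-3p (1.61) and miR-331-3p (1.98). SSPO ranked 3 after miR-301b-3p (1.2), with SRPR (1.14) next below, and TMEM238 ranked 2 after miR-331-3p (1.96), with MAPK8IP2 (1.65) first outside the top 3. UNC5B ranked 2 in D538G after miR-301b-3p (1.25), where DDIT4 (1.04) ranked 4. CEBPD (1.26) and SLC36A1 (1.13) ranked 1 and 3 in D538G after miR-181c-5p, where NTN1 (1.12) ranked 4. TMEM121 (1.78 after miR-331-3p in Y537S) and CHRM1 (2.29 in Y537S and 1.35 in D538G after miR-301b-3p) are not in this ranking. The ranking has the conditions on call, clones and level given above, so it does not show how these genes were chosen. IGFBPL1, FGFR4 and NTN1 (rank 3 in Y537S after miR-331-3p, 1.69) rank as high as the chosen genes but are not among them.

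Tested directly in WT clones, 4 of 24 differences between mimics passed. Of the 8 genes 1 differed between miR-331-3p and miR-301b-3p (TMEM238, where 6.17% of all genes were called), 2 between miR-181c-5p and miR-301b-3p (SSPO and CHRM1, against 9.12%) and 1 between miR-181c-5p and miR-331-3p (SLC36A1, against 8.07%). These fits used all 8 WT libraries, and with the clone block the counts were 4, 4 and 3, against 12.8%, 15.1% and 14.9% of all genes. The TMEM238 difference (0.99) was 0.78, 1.1 and 0.93, with adjusted p from 0.121 to 0.198, without the D4 library of miR-301b-3p, the D1 library of miR-331-3p or the D4 library of miR-331-3p. The SSPO difference of -0.74 missed the threshold without the D1 library of miR-301b-3p (-0.56) or either library of miR-181c-5p (-0.87 and -0.61). The SLC36A1 difference of 0.48 did so without either library of miR-331-3p (0.49 and 0.42) or the D1 library of miR-181c-5p (0.39).

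**Figure D3:**
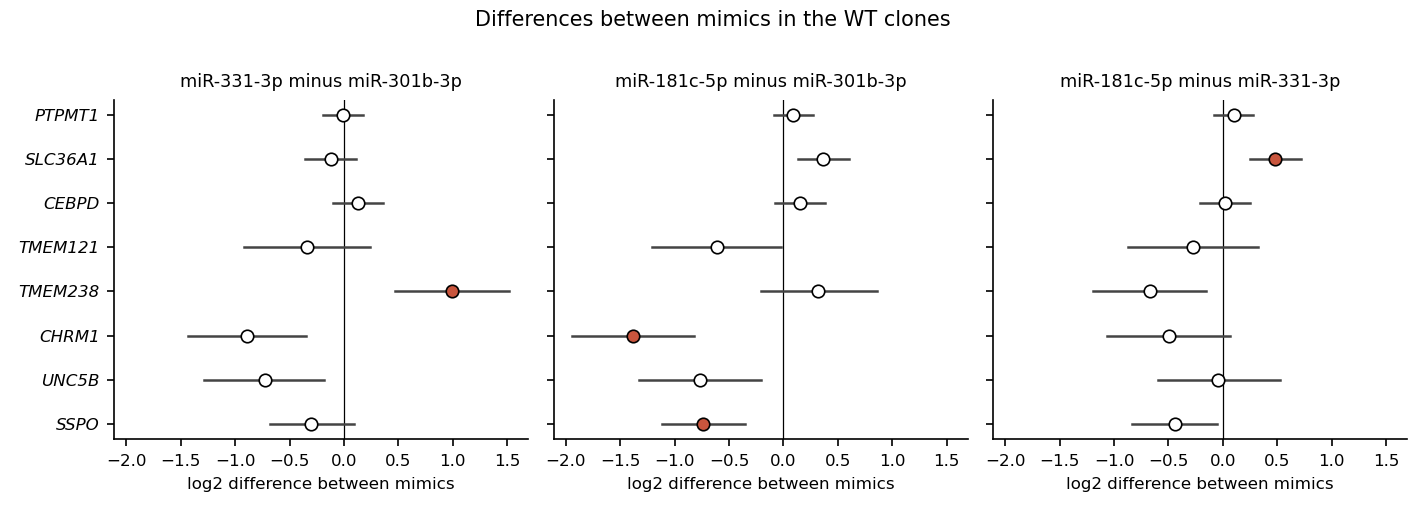
Log2 difference between 2 mimics in the WT clones (horizontal axis) for the 8 genes, with 95% intervals; filled points passed an adjusted p of 0.05 over all genes. The intervals of PTPMT1 and CEBPD include 0 in all 3 panels, and that of CHRM1 lies wholly below 0 for both mimics set against miR-301b-3p.

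The mimic control libraries were also set against all other libraries. PTPMT1 was at 28.4 to 56.4 CPM in the 6 mimic control libraries and at 88.7 to 136 CPM in the other 18. SLC36A1 was at 13.9 to 22.0 CPM in the 6 and at 24.0 to 46.1 CPM in the 18. Such a full separation was found for 72 of 16383 genes (0.439%), and by the difference of mean log2 CPM PTPMT1 (1.31) and SLC36A1 (0.95) rank first and second of the 72. BANF1 (0.91) and SRPR (0.82) are also among them. Mutant libraries that served to choose the genes take part in this separation and ranking, so both are given as a description only. In the remaining 6 genes the 18 other libraries overlapped the controls, and each of these genes also overlapped within at least 1 genotype (SSPO, TMEM238 and UNC5B in WT and Y537S, CHRM1 in WT, and TMEM121 and CEBPD in Y537S). Within Y537S, where both kinds of control exist, all 8 other libraries exceeded both mimic controls for PTPMT1, SLC36A1 and CHRM1, against 6.72% of all genes. In WT the 6 mimic libraries did so for PTPMT1, SLC36A1, CEBPD and TMEM121 (14.1% of all genes), and in D538G the 4 mimic libraries for all 8 genes (17.9%). The D538G libraries, and the mimic and mimic control libraries of Y537S, served to choose the genes, so nothing is read from those counts. The Y537S libraries with an inhibitor oligonucleotide and those with a mimic differ in more than the miRNA concerned, and no untransfected library was analysed here, so a low mimic control and a high level in all other libraries cannot be told apart.

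Against the inhibitor control in place of the mimic control, the Y537S changes of several genes were different in size. The miR-331-3p libraries stood 0.42 (PTPMT1), 0.08 (SLC36A1), 0.52 (CEBPD), 0.99 (TMEM121), 1.03 (TMEM238), 0.62 (CHRM1) and 0.22 (UNC5B) log2 units above the inhibitor controls, as means of 2 clones, and SSPO -2.20 from them. The miR-301b-3p libraries stood 0.09 (PTPMT1), 0.16 (SLC36A1), 0.44 (CEBPD), 0.51 (TMEM121), 1.76 (CHRM1), 1.26 (UNC5B) and 0.95 (SSPO) above them, and TMEM238 -0.70 from them. Against the mimic control the fitted changes were 1.61 (PTPMT1), 0.98 (SLC36A1) and 2.29 (CHRM1) after miR-301b-3p, and 1.98 (PTPMT1), 0.96 (SLC36A1) and 1.96 (TMEM238) after miR-331-3p. These are differences of mean log2 CPM and were not tested.

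The genes differ in base composition, and over all genes the changes after mimics moved with GC content. Among the 8 genes, how far the order of changes in WT followed GC content differed by mimic. After miR-301b-3p TMEM238, the richest, was at 0.42 and PTPMT1, the poorest, at 1.19. After miR-331-3p TMEM238 had the largest change of the 8 genes (1.43) and TMEM121, the next richest, came after it (1.27), with PTPMT1 next. After miR-181c-5p PTPMT1 had the largest change (1.28). The canonical transcripts of TMEM238 (76.0% GC), TMEM121 (70.5%), SSPO (67.1%), CEBPD (66.0%), CHRM1 (61.3%) and UNC5B (60.2%) are richer in GC than 84.3% to 99.99% of genes, whereas PTPMT1 (49.0%) and SLC36A1 (51%) are near the middle. Over all genes, those in the top GC decile had a median log2 fold change of 0.38, 0.50 and 0.35 after miR-301b-3p, miR-331-3p and miR-181c-5p in WT, and those in the bottom decile -0.20, -0.19 and -0.23. With a smooth correction for GC content, 4, 2 and 3 of the 8 genes were called higher, in place of 7, 7 and 3. Among all genes tested, 689, 1041 and 1080 were called in either direction with the correction, and 35.6%, 49.3% and 39.2% of these calls were higher. With the clone block and the correction together the counts of the 8 genes were 7, 3 and 3. No share of all genes is given here for this setting, so nothing is read from these counts. The block alone called 4269 of 15113, 5599 of 15140 and 4173 of 14968 genes in either direction. Under block and correction together, SSPO (0.57, adjusted p = 6.03e-10), CEBPD (0.33, adjusted p = 0.00804) and UNC5B (0.79, adjusted p = 8.29e-16) were called after miR-301b-3p, and CEBPD (0.34, adjusted p = 0.00479) after miR-331-3p. The block leaves few values to estimate the remaining spread, and these p-values are to be read with that limit. Without the block, PTPMT1 (1.22, 1.24 and 1.29) and SLC36A1 (0.73, 0.63 and 1.07) kept all their calls. CHRM1 (1.34) and TMEM121 (1.05) kept theirs after miR-301b-3p, and CEBPD its own after miR-181c-5p (0.51).

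The correction took most from the GC-rich genes after miR-331-3p, where TMEM238 went from 1.43 to 0.44, TMEM121 from 1.27 to 0.52, SSPO from 0.74 to 0.13 and CEBPD from 0.89 to 0.34. In WT the sign turned in changes that were not called: TMEM238 after miR-301b-3p (-0.28), UNC5B after miR-331-3p (-0.01), and SSPO (-0.12) and CHRM1 (-0.06) after miR-181c-5p. UNC5B after miR-181c-5p went from 0.24 to -0.00. In Y537S the corrected change after miR-331-3p was 1.90 for PTPMT1, 1.05 for TMEM238, 1.02 for TMEM121 and -2.56 for SSPO. Among the differences between mimics, CHRM1 between miR-181c-5p and miR-301b-3p (-1.39, adjusted p = 0.00294) and SLC36A1 between miR-181c-5p and miR-331-3p (0.44, adjusted p = 0.0152) kept their calls. With the correction CHRM1 also passed between miR-331-3p and miR-301b-3p (-0.96, adjusted p = 0.0278), and SLC36A1 between miR-181c-5p and miR-301b-3p (0.34, adjusted p = 0.0485). TMEM238 between miR-331-3p and miR-301b-3p (0.70, adjusted p = 0.083) and SSPO between miR-181c-5p and miR-301b-3p (-0.69, adjusted p = 0.0504) did not. Whether GC content plays a part in the rises beyond this was not tested.

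**Figure D4:**
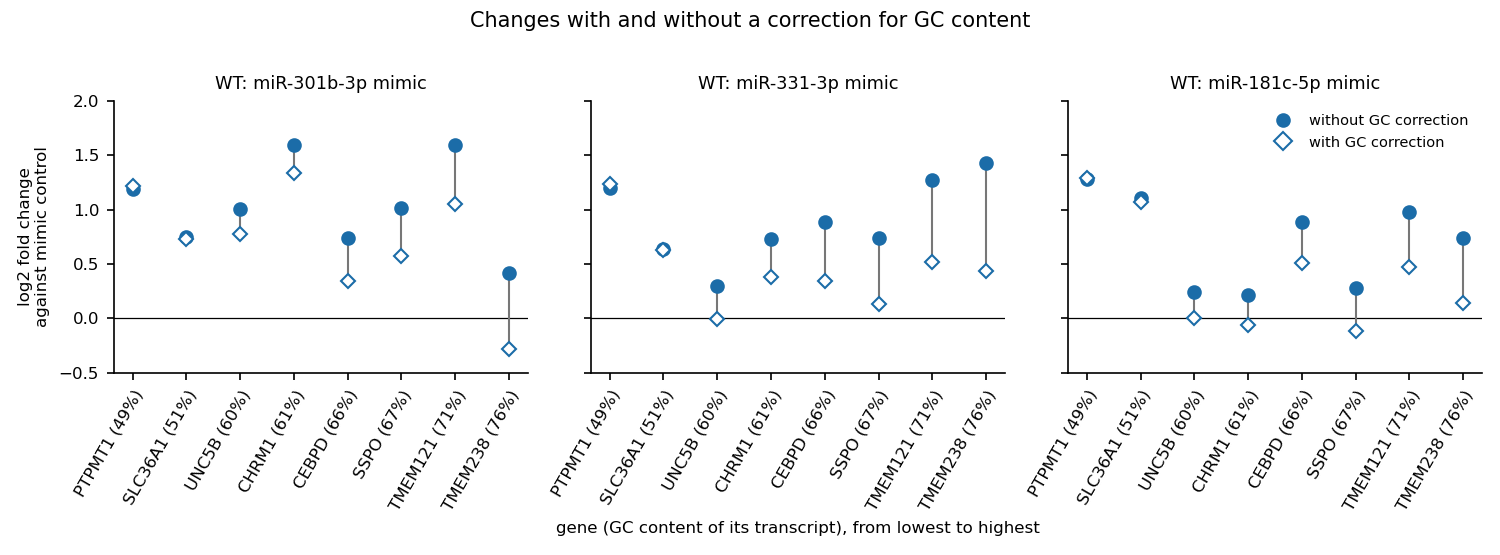
Log2 fold change against the mimic control in WT clones (vertical axis) without (filled circles) and with (open diamonds) a correction for GC content, for the 8 genes ordered by the GC content of their transcript (horizontal axis). PTPMT1 and SLC36A1 barely move, whereas TMEM238 falls from 1.43 to 0.44 after miR-331-3p.

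Stretches complementary to the seeds were sought in the canonical GENCODE transcripts (plus strand of the transcript, exact 7-base matches to bases 2 to 8). The stretches were TTGCACT for miR-301b-3p, CCAGGGG for miR-331-3p, TGAATGT for miR-181c-5p and CTACCTC for let-7f-5p. They occur in 14.25%, 14.15%, 19.46% and 9.88% of the 18606 3′UTRs of the tables' genes, respectively, and in 18.79%, 27.61%, 26.9% and 20.48% of 21982 whole transcripts. No transcript of the 8 genes holds the miR-301b-3p stretch. TMEM238 and TMEM121 hold none of the 4. The PTPMT1, SLC36A1 and UNC5B matches in 3′UTRs are shown because the log2 fold changes of these genes were above 0 after the mimic whose seed they match, with the match in capitals and hg19 coordinates of the 7 bases, all on the plus strand.
PTPMT1, miR-331-3p match at chr11:47594415-47594421: aattggggcCCAGGGGactttgagt
SLC36A1, miR-331-3p match at chr5:150868315-150868321: ttcgagtctCCAGGGGgtggctgga
SLC36A1, miR-181c-5p match at chr5:150870895-150870901: agatatgtgTGAATGTgtggcatca
UNC5B, miR-181c-5p match at chr10:73059777-73059783: ggccaggagTGAATGTgcctgtgtg
PTPMT1 and SLC36A1 rose in WT after miR-331-3p, and SLC36A1 after miR-181c-5p. CHRM1 holds 1 miR-331-3p and 1 let-7f-5p match in its coding sequence, and CEBPD 1 miR-331-3p match outside its 3′UTR. A match describes letters and is not evidence of binding.

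The SSPO transcript, 15799 bases long with no annotated coding sequence, holds 6 miR-331-3p matches, more than any other of the 8 genes, and 1 let-7f-5p match. It is also the longest of the 8 transcripts, as the others have 695 to 6841 bases, and 67.1% of its bases are G or C. The number of matches was not set against length or base composition. The 6 are shown because SSPO changed in opposite directions after miR-331-3p in Y537S and WT. A link between the matches and either change was not tested. All lie in exons on the plus strand of chromosome 7 (hg19).
SSPO at chr7:149492408-149492414: ggctcccacCCAGGGGcccagccct
SSPO at chr7:149493707-149493713: cctctgtgcCCAGGGGttggactcc
SSPO at chr7:149499229-149499235: cctcctctgCCAGGGGgcagctgcc
SSPO at chr7:149500655-149500661: ctgaagtggCCAGGGGtgtccttcc
SSPO at chr7:149500807-149500813: ctgtgccaaCCAGGGGgctgccccc
SSPO at chr7:149503080-149503086: agcttggctCCAGGGGacaccacgt
In WT clones SSPO rose after miR-331-3p.

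The genes lie on 7 chromosomes in the hg19 build. PTPMT1 spans chr11:47586982-47595013 and CHRM1 chr11:62676151-62689279, and the others are at chr7:149473131-149531068 (SSPO), chr19:55890612-55895660 (TMEM238), chr14:105992920-105996535 (TMEM121), chr8:48649475-48650726 (CEBPD), chr5:150816607-150871940 (SLC36A1) and chr10:72972327-73062621 (UNC5B). PTPMT1 overlaps NDUFS3 on the same strand and KBTBD4 on the opposite strand, and the counting setting for strand is not given in the sources used here, so its counts are uncertain to that extent. NDUFS3 (-0.00, 0.07 and 0.01) and KBTBD4 (0.12, 0.14 and 0.04) were not called after any of the 3 mimics in WT. UNC5B overlaps the antisense gene UNC5B-AS1, and CHRM1 a long noncoding RNA on the other strand. Of 16 nearest expressed neighbours, 2, 4 and 3 were called higher after miR-301b-3p, miR-331-3p and miR-181c-5p, with medians of 0.07, 0.10 and 0.13, where 4.63%, 14.2% and 8.1% of all genes were called higher. PRKDC beside CEBPD was called lower after miR-331-3p (-0.18, adjusted p = 0.0233). ZNF467 beside SSPO (0.44, 0.51 and 0.34) and C14orf80 beside TMEM121 (0.73, 0.79 and 0.68) were called after all 3.

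The other genes of the same pathways are described by counts, with no test against the 8 genes. Of 9 other genes of cardiolipin synthesis and supply, 0, 2 and 1 were higher and 3, 1 and 2 lower in WT after miR-301b-3p, miR-331-3p and miR-181c-5p (medians -0.07, 0.06 and -0.05). Over all genes, 8.5%, 24.8% and 16.4% were called in either direction. CDS1 and CDS2, which make CDP-diacylglycerol, include the clearest changes. CDS1 fell by 1.09 on the log2 scale after miR-301b-3p (adjusted p = 0.0025) and rose by 0.60 after miR-181c-5p (adjusted p = 0.00215), and CDS2 fell after all 3 mimics (-0.34, -0.42 and -0.36). Of 13 other genes of proton-coupled and lysosomal amino acid transport and sensing, 11 were tested, with 0, 2 and 2 higher and 1, 1 and 0 lower. The close relatives SLC36A2 and SLC36A3 did not exceed 0.193 CPM in any library.

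Of 6 other C/EBP genes 5 were tested, and 0, 2 and 0 were higher in WT, where 4.63%, 14.2% and 8.1% of all genes were called higher. CEBPA (0.45) and CEBPB (0.39) rose after miR-331-3p, and CEBPZ (-0.38) fell. Among 8 genes of the interleukin-6 and STAT3 pathway, which acts upstream of CEBPD, 1 was higher and 1 lower after each mimic. Of all genes, 8.5%, 24.8% and 16.4% were called in either direction. The receptor subunit IL6ST fell after miR-301b-3p (-0.93, adjusted p = 0.000974) and miR-181c-5p (-0.32, adjusted p = 0.0321). The immediate early gene JUNB rose after miR-331-3p (0.67) and miR-181c-5p (0.46). IL6R rose after miR-301b-3p (0.74) and fell after miR-331-3p (-0.71). STAT3 itself was at 287 to 362 CPM and was not called in WT.

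Among 11 other netrin ligands and receptors, 8 of them tested in WT, NTN1, which encodes the UNC5B ligand netrin-1, was the only call and rose after all 3 mimics. Its log2 fold changes were 0.88 (adjusted p = 0.00725), 1.06 (adjusted p = 0.000223) and 1.18 (adjusted p = 0.000298). NTN1 also ranked 3 in Y537S after miR-331-3p (1.69) and 4 in D538G after miR-181c-5p (1.12), in comparisons that served to choose the genes. Of all genes, 8.5%, 24.8% and 16.4% were called in either direction after the 3 mimics. UNC5A, UNC5C and UNC5D did not exceed 2.70 CPM. Of the 4 other muscarinic receptors only CHRM3 passed the filter in WT (1.42 to 5.31 CPM over the series) and it was not called, with 0.10, -0.33 and -0.48. CECR6, the paralog of TMEM121, was at most at 2.59 CPM, and its changes of 1.28, 1.03 and 1.14 did not pass (adjusted p from 0.196 to 0.285). After the let-7f-5p inhibitor edgeR called no gene of these lists.

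Across the 8 comparisons with a control, the gene whose changes lay nearest to those of PTPMT1 among 10064 expressed genes was IGFBPL1 (root mean squared difference 0.23 log2 units). CEBPD and SLC36A1 were each other's nearest gene (0.17). FGFR4 was nearest to both UNC5B (0.24) and CHRM1 (0.38), ADAMTS13 to SSPO (0.31), METRN to TMEM238 (0.43) and PTPMT1 to TMEM121 (0.33). Because comparisons of a genotype share their control libraries, these likenesses describe the pattern and carry no test.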

How the data were processed

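RNA-seq was performed by the authors on 24 libraries made with a stranded poly-A kit. Per the study's methods, reads were aligned to hg19 with HISAT2 and assigned to UCSC Known Genes with featureCounts; versions, strand setting and handling of multi-mapped reads are not given in the sources used here. The authors deposited unnormalised gene counts, and all columns were used. The members and the gene lists were chosen with earlier results of these data known. The 2 clones of a genotype served as replicates, so p-values of fits without the clone block measure the spread between clones. The clone block removes the difference in level between clones and leaves few values to estimate the remaining spread. Its very small p-values are to be read with that limit. With the block 28.2%, 37.0% and 27.9% of all genes were called in WT after miR-301b-3p, miR-331-3p and miR-181c-5p.

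From the counts, TMM factors (0.9 to 1.03), CPM and log2 CPM (prior count 2) were computed. Each comparison was fitted with edgeR 4.0.16 (quasi-likelihood F test, filterByExpr, Benjamini-Hochberg over all genes tested) in R 4.3.3 on its own 4 libraries, and differences between mimics on all 8 WT libraries. SE is the log2 fold change over the square root of F. With 2 against 2 libraries an exact permutation test cannot go below p = 0.333. Calls require an adjusted p below 0.05. Alternatives were RLE size factors, DESeq2 1.42.0, no filter, other sets of libraries in the fit, the clone as a block, a lowess correction for GC content (span 0.3), both together, and each library left out. The clone was used as a block because the same heading names the same cell line. Across genes, the difference between clones correlated between paired conditions at 0.12 to 0.18 in WT, 0.15 and 0.17 in D538G, and 0.43 to 0.47 in Y537S. The pairing was thus weaker in WT, where most block values are given, than in Y537S. Genes were matched to GENCODE v44 (lifted to hg19) by symbol (22494) or another symbol (1350), and 2520 were not matched. Named genes were the 8 members, genes just outside the choice, nearest neighbours, listed pathway genes and the 2 genes with the nearest profile. Scripts were tested on simulated counts.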

Additional observations from a re-analysis of the deposited data

Results flagged for a closer look

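SSPO changed in opposite directions after the miR-331-3p mimic in 2 genotypes. Its log2 fold change against the mimic control was 0.74 in WT and -1.93 in Y537S, where both WT clones were higher (0.78 and 0.63) and both Y537S clones lower (-1.80 and -2.08). The difference between the genotypes was not tested, since Y537S libraries were used to choose the gene. With the correction for GC content the values were 0.13 and -2.56.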

How the results depend on the processing

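The numbers of the 8 genes called changed as follows. After miR-301b-3p in WT 7 were called, 4 with the GC correction and 7 with block and GC correction. After miR-331-3p 7 were called, 2 with the GC correction and 3 with block and GC correction. After miR-181c-5p 3 were called, 5 with no filter and 6 with the block. Single calls changed as well, beyond those given above for a library left out. UNC5B was added after miR-331-3p with the block (adjusted p = 0.0137) and lost after miR-301b-3p in DESeq2 (adjusted p = 0.109). CHRM1 after miR-331-3p was lost in DESeq2 (adjusted p = 0.0849) and in the edgeR fit of all WT conditions (adjusted p = 0.0738). That edgeR fit added TMEM121 after miR-181c-5p (adjusted p = 0.0336). For the let-7f-5p inhibitor 0 were called, 1 in DESeq2, 1 with the block and 2 with block and GC correction. Between miR-331-3p and miR-301b-3p 1 was called, 2 in DESeq2, 3 with no filter, 2 with only the compared groups, 4 with the block and 4 with block and GC correction, and 0 to 1 with a library left out. Between miR-181c-5p and miR-301b-3p 2 were called, 4 with no filter, 4 with the block, 4 with block and GC correction, and 1 to 3 with a library left out. Between miR-181c-5p and miR-331-3p 1 was called, 3 with no filter, 3 with the block, 2 with block and GC correction, and 0 to 1 with a library left out. Calls over all genes rose as well. For the let-7f-5p inhibitor they were 0, 79 in DESeq2, 1694 with the block and 1696 with block and GC correction. In the same order they were 961, 1345, 2000 and 2740 between miR-331-3p and miR-301b-3p. They were 1422, 1728, 2354 and 3171 between miR-181c-5p and miR-301b-3p, and 1257, 1681, 2322 and 2928 between miR-181c-5p and miR-331-3p. Nothing is read from the counts of the 8 genes here. The block changed no call other than those named in the report. The causes were not tested. The median log2 fold change of the 8 genes was 1.22 (Y537S, miR-301b-3p), 1.03 (Y537S, miR-331-3p), 0.98 (D538G, miR-301b-3p) and 0.94 (D538G, miR-181c-5p). With the GC correction it was 0.89, 0.72, 0.73 and 0.59, with block and GC correction 0.90, 0.72, 0.73 and 0.61, and with a library left out 1.04 to 1.51 in the first.

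The sign turned in changes that were not called. With the GC correction, TMEM238 after miR-301b-3p was -0.28 (-0.29 with the block), UNC5B after miR-331-3p -0.01, and after miR-181c-5p SSPO -0.12 (-0.12) and CHRM1 -0.06 (-0.09). PTPMT1 between miR-331-3p and miR-301b-3p was 0.02 (0.02), and UNC5B between miR-181c-5p and miR-331-3p 0.02. With a library left out, UNC5B ranged from -0.02 to 0.70 after miR-331-3p and from -0.09 to 0.65 after miR-181c-5p, and CHRM1 from -0.28 to 0.58 after miR-181c-5p. For the let-7f-5p inhibitor the ranges were -0.27 to 0.17 (CEBPD), -0.08 to 0.07 (SLC36A1), -0.36 to 0.42 (CHRM1) and -0.79 to 0.24 (UNC5B). Between mimics they were -0.11 to 0.11 and -0.01 to 0.18 for PTPMT1 against miR-301b-3p (miR-331-3p and miR-181c-5p). Between miR-181c-5p and miR-331-3p they were -0.82 to 0.13 (TMEM121), -0.09 to 0.11 (CEBPD) and -0.37 to 0.23 (UNC5B).

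Over all genes, 1284, 3755 and 2452 were called after miR-301b-3p, miR-331-3p and miR-181c-5p in WT. These were 4269, 5599 and 4173 with the block, and 689, 1041 and 1080 with the GC correction. The share of calls that were higher went from 54.4% to 35.6% (miR-301b-3p), from 57.2% to 49.3% (miR-331-3p) and from 49.5% to 39.2% (miR-181c-5p) with that correction.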
